A study of Mus musculus with 24 samples.

Results

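Unwounded skin of the cheek was compared with unwounded skin of the back in 8 of the 24 RNA-seq libraries of the series. The 8 libraries were chosen by their labels, 4 from the cheek and 4 from the back, and each came from a different mouse. All genes of the expression table entered: 18368 were listed and 13956 were tested, namely those with at least 0.5 FPKM in 4 or more of the 12 unwounded libraries. FPKM is a gene's fragment count corrected for transcript length and for library size.

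The mice were CD1, an outbred laboratory strain, and no mutation, transgene or experimental drug treatment was given for any group. Per the study's methods, the mice received an anaesthetic and an analgesic before wounding. At 7 weeks, with the hair cycle synchronised in telogen (its resting phase), each of 12 mice was shaved and wounded at a single site, with 1 wound of 2 mm on the cheek or 2 such wounds on the back or abdomen. At day 3 the wound and the healthy skin beside it were taken from the same mouse. The unwounded libraries of both sites therefore came from shaved mice that carried a wound nearby, and each was made from a 2 mm punch. Cheek mice carried 1 wound and back mice 2, so that site and number of wounds cannot be told apart. In whole tissue, fewer cells of one type and less RNA per cell cannot be told apart.

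The dermis of the face develops from cranial neural crest, and that of the back from paraxial mesoderm, the tissue of the somites. Hox genes, arranged in clusters on 4 chromosomes, encode transcription factors whose nested expression along the head to tail axis marks position in the embryo, and fibroblasts of adult skin keep a part of this code. The comparison asks which of these marks of origin, and which matrix, appendage and metabolic genes, differ between adult skin of both sites.

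Libraries of both sites differed in how expression was spread over genes. The listed FPKM values summed to 525638 to 541292 in the cheek and to 519018 to 548455 in the back, and 16242 to 16432 genes against 15781 to 16118 were above 0, without overlap. The 10 most abundant genes took up 5.70 to 8.30% of the sum in the cheek and 8.26 to 9.68% in the back, ranges that overlapped slightly. The size factors used for scaling were 0.994 to 1.09 in the cheek and 0.931 to 0.963 in the back, without overlap. All 24 libraries held transcripts of all 4 Y-linked genes examined. Krt10, a keratin of the living epidermis above its basal layer, and Col1a1 were among the most abundant transcripts at both sites, so the skin label was met. Skeletal muscle was present too, with 38 muscle genes summing to 19597 to 39618 FPKM in the cheek and to 21891 to 34937 FPKM in the back. In the abdomen, whose libraries share the estimate of spread, mice 2 and 3 stood at 863 and 4443 FPKM and mice 1 and 4 at 24885 and 24043 FPKM. Some libraries stood apart. In the cheek library of mouse 4, 30 genes of the growing hair shaft and its inner root sheath summed to 9078 FPKM, against 13.8 to 64.8 FPKM in the other cheek libraries and 15.3 to 127 FPKM in the back, which goes against the telogen label. Genes of cell division, 30 in all, summed to 458 and 594 FPKM in cheek mice 3 and 4, against 214 and 227 in cheek mice 2 and 1 and 184 to 288 in the back. The insulin transcripts Ins1 and Ins2, made by the pancreas, were listed at 114 and 117 FPKM (Ins2) and at 35.1 and 36.1 FPKM (Ins1) in back mice 1 and 3, and at 0 in the other 6 libraries. All 14 pancreas genes in the table, the insulin genes included, summed to 198 and 207 FPKM in back mice 1 and 3. In the other 6 libraries that sum was 0.79 to 1.99 FPKM. The part of these libraries in the results was not tested beyond the fits without them given below.

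Of the 13956 tested genes, 157 (1.12%) differed between the sites at an adjusted p under 0.05 (limma with Benjamini-Hochberg adjustment, hereafter "called"). Among these, 38 (0.272% of tested genes) were higher in cheek and 119 (0.853%) were lower, and 23 and 63 of them changed by more than 2-fold. Counts of calls in the lists below are to be read beside these shares. Without adjustment, 1946 genes (13.9%) had a p under 0.05. The scaled values of the 4 cheek and the 4 back libraries did not overlap for 625 genes that were higher in cheek (4.48%) and 802 that were lower (5.75%), and all 157 called genes were among them. The smallest difference among the called genes was that of Sec31a, a coat protein of vesicles leaving the endoplasmic reticulum, at -0.32 on the log2 scale (limma adjusted p = 0.0488), and it was lost in each of the 12 fits that left out 1 mouse (up to 0.148).

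How libraries were scaled set the split between directions. Log2 differences are on the scale of log2(FPKM + 0.5) after division by a size factor per library, and they understate the change of low genes. With these size factors the median log2 difference over all tested genes was 0.01, and 24.2% of the called genes were higher in cheek. On the FPKM values as deposited the median was 0.14, and 78 genes (0.559%) were called higher in cheek against 69 (0.494%) lower, so that 53.1% were higher. After quantile normalization 30 genes (0.215%) were higher and 102 (0.731%) lower. No called gene changed sign under either. Of the 157 calls, 59 held in each of the 12 fits that left out 1 mouse, 15 higher and 44 lower, and 35 of these also held in every other setting tried, 16 of them Hox genes. Without back mice 1 and 3, a fit added after seeing the data, 44 genes were called, 10 higher and 34 lower, and 41 of them were among the 157.

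**Figure D1:**
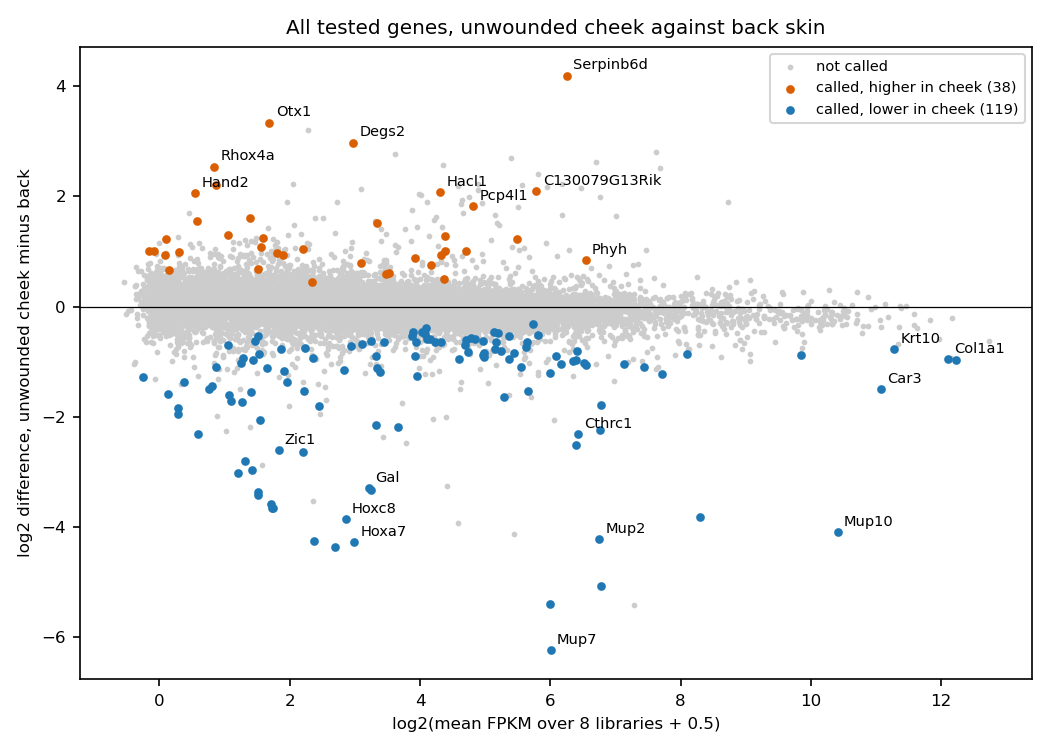
Each point is 1 of the 13956 tested genes, with the log2 of its mean FPKM over the 8 libraries (plus 0.5) on the horizontal axis and the log2 difference of cheek minus back on the vertical axis. Orange points are the 38 genes called higher in cheek and blue points the 119 called lower. Of the called genes, Mup7 lies farthest below 0, and Serpinb6d and Otx1 lie farthest above it.

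Hox genes were the group with the most calls. Of 39 listed Hox genes 37 were in the table and 29 were tested, and 18 of these were lower in cheek, none higher, against 0.853% lower among all tested genes. Their median log2 difference was -1.72, or -1.61 without the 4 genes listed at 0 in all cheek libraries, beside 0.01 over all genes. The clusters differed. In the Hoxb cluster on chromosome 11, all 8 tested genes were lower in cheek, from Hoxb2 to Hoxb9. In the Hoxa cluster on chromosome 6, 5 of 9 were lower (Hoxa5, Hoxa6, Hoxa7, Hoxa9 and Hoxa10), and in the Hoxc cluster on chromosome 15, 5 of 7 (Hoxc5, Hoxc6, Hoxc8, Hoxc9 and Hoxc10). None of the 5 tested Hoxd genes on chromosome 2 was called.

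Hoxa7 (chr6:52215623-52218573 in GRCm38) was listed at 0.44, 0.28, 0.43 and 0.19 FPKM in the 4 cheek libraries and at 16.8, 14.0, 14.2 and 13.3 in the 4 back libraries. The groups were far apart, with means of 0.34 ± 0.12 and 14.6 ± 1.53 FPKM (SD, n = 4 each) and a log2 difference of -4.29 ± 0.18 (SE, limma adjusted p = 4.53e-08). Hoxc8, which patterns the thorax, was listed at 0.28, 0.23, 0.75 and 0.88 FPKM in cheek and at 14.9, 11.9, 12.8 and 12.2 in back, a log2 difference of -3.87 ± 0.18 (limma adjusted p = 1.27e-07). Hoxb7 was at 0, 0.10, 0 and 0.05 FPKM in cheek and 9.82, 11.1, 7.56 and 8.67 in back (log2 difference -4.26 ± 0.20, limma adjusted p = 1.45e-07). In each of these 3 genes the lowest back library was above 7 FPKM and every cheek library was below 1 FPKM.

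For 10 of the 18 called Hox genes the cheek mean was under 0.1 FPKM, with 0.13 FPKM as the highest value in any library. Every cheek library listed 0 for Hoxc10, Hoxb8, Hoxa9 and Hoxa6, so no fold change is given for them. In the back they stood at 0.78, 0.60, 0.67 and 0.64 (Hoxa6), 4.71, 7.07, 4.47 and 6.19 (Hoxa9), 3.92, 6.16, 3.50 and 5.24 (Hoxb8) and 3.91, 6.90, 4.81 and 7.07 FPKM (Hoxc10), with limma adjusted p of 0.0141, 5.69e-07, 2.32e-07 and 2.93e-05. Hoxa10, Hoxb6, Hoxb9 and Hoxc9 were above 0 in 1 cheek library each, at 0.03 to 0.11 FPKM. Hoxb5 was low in cheek as well, at 0, 0.13, 0.03 and 0.03 FPKM against 1.72, 1.26, 0.95 and 1.67 in back. Hoxb2, Hoxc5 and Hoxc6 were lower in cheek but stayed above 1 FPKM there. Hoxb2 was at 1.38, 2.40, 1.67 and 3.12 FPKM in cheek and 8.89, 6.89, 7.16 and 8.10 in back, and Hoxc6 at 2.67, 3.51, 3.20 and 4.59 and 16.0, 16.5, 15.7 and 13.9.

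The remaining 11 tested Hox genes were not called. Hoxc4 came closest, at 2.61, 3.58, 4.09 and 4.33 FPKM in cheek and 5.45, 5.73, 4.60 and 5.27 in back, with groups that did not overlap and a limma adjusted p of 0.0907. Hoxa2, Hoxa3 and Hoxa4 gave log2 differences of 0.34, -0.69 and -0.52. Hoxd8, whose mean FPKM was the highest of the Hox genes in both sites, was at 27.7, 28.4, 20.2 and 16.3 FPKM in cheek and at 17.2, 18.7, 18.4 and 25.2 in back, a difference of 0.05 ± 0.20 on the log2 scale (limma adjusted p = 0.933). Hoxd9 was at 8.55 ± 1.35 and 6.64 ± 0.88 FPKM. Hoxd3 was at 1.81, 1.57, 1.47 and 0.80 FPKM in cheek and 0.54, 0.94, 0.49 and 0.52 in back, with overlapping groups (limma adjusted p = 0.155). Hoxc13, a regulator of hair keratins, stood at 40.7 FPKM in the cheek library rich in hair shaft transcripts and at 2.63 to 8.27 FPKM in the other 7 libraries. Hoxb3 and Hoxb4, Hoxa3 and Hoxa4, and Hoxd3 and Hoxd4 overlap in their annotated spans, so that their fragments may be shared between neighbours. The Hox calls numbered 16 without back mice 1 and 3, where Hoxc5 was lost (adjusted p = 0.0709) and Hoxa6 did not pass the filter on low values, 20 with all 24 libraries in 1 fit, 17 under a filter of 1 FPKM and 18 in each of the other settings, the 12 fits without 1 mouse included.

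**Figure D2:**
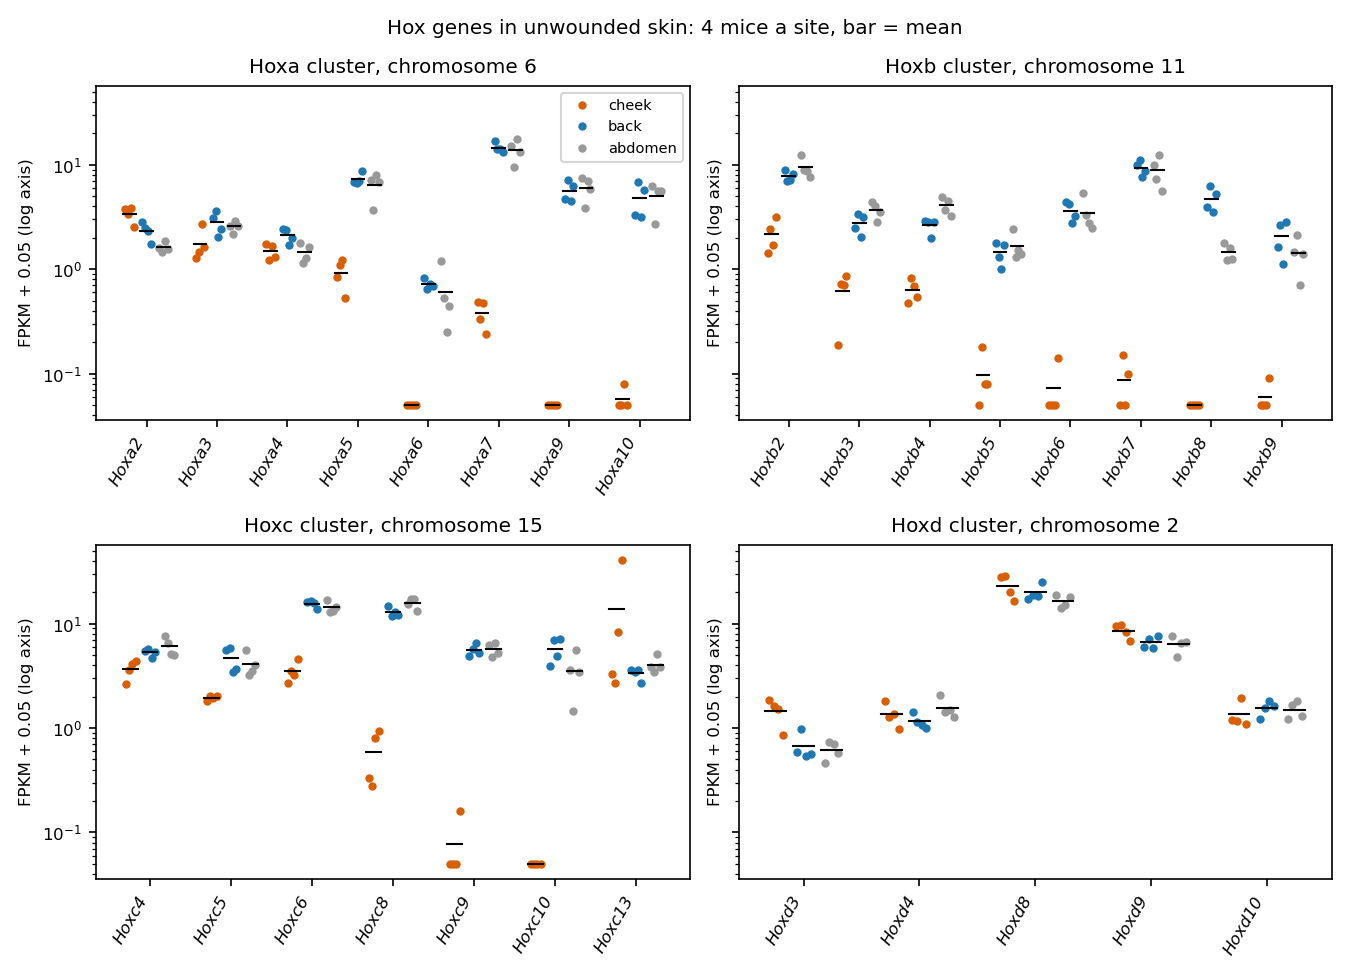
Points are FPKM values of single unwounded libraries (plus 0.05, log axis) for tested Hox genes, 1 panel a cluster and genes in cluster order, with orange for cheek, blue for back and grey for abdomen. Black bars are means of 4 mice. From Hoxa5, Hoxb2 and Hoxc5 onward the cheek points lie below those of the back, except for Hoxc13, and in the Hoxd panel the sites overlap.

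Outside the Hox clusters, transcription factors that mark body regions differed in both directions. Otx1, an orthodenticle homeobox factor of the forebrain and head, was at 3.88, 3.99, 8.0 and 5.74 FPKM in cheek and 0.09, 0, 0 and 0.07 in back. This was the largest difference among the positional factors that were higher in cheek (log2 difference 3.34 ± 0.31, limma adjusted p = 9.75e-05). Hand2, a basic helix-loop-helix factor of the jaw, limb and heart primordia, was at 1.64, 1.03, 2.23 and 2.69 FPKM in cheek and 0.05, 0, 0 and 0.09 in back (2.06 ± 0.19, limma adjusted p = 9.75e-05). Tbx5, a T-box factor of the forelimb and heart, was at 0.89, 0.41, 0.59 and 0.97 FPKM and 0.03, 0.02, 0.13 and 0.13 (1.01 ± 0.17, limma adjusted p = 0.0127). For each of these 3 genes every cheek library was above every back library, and the back values were at or under 0.13 FPKM.

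Zic1, a zinc finger factor of the dorsal neural tube and somites, was the factor most clearly higher in back. It was listed at 5.01, 6.22, 5.62 and 5.28 FPKM in back and at 0.77, 0.60, 0.52 and 0.40 in cheek, a log2 difference of -2.61 ± 0.15 (limma adjusted p = 8.54e-07). Its neighbour on chromosome 9, Zic4, fell under the filter on low values but followed the same split, at 0.53, 0.47, 0.53 and 0.60 FPKM in back and 0.03, 0.01, 0 and 0 in cheek. Pitx1, a hindlimb and jaw factor, was at 1.10, 2.09, 0.95 and 1.29 FPKM in back and 0.30, 0.27, 0.19 and 0.20 in cheek (-1.37 ± 0.24, limma adjusted p = 0.0159, but 0.06 without cheek mouse 3). En1, which marks the dermis of the trunk in the embryo, was at 3.45, 3.93, 4.33 and 3.99 FPKM and 2.33, 1.82, 2.79 and 2.38, a smaller difference (-0.78 ± 0.15, limma adjusted p = 0.0246). The En1 call was lost on unscaled values (adjusted p = 0.0689) and without cheek mouse 2 or 4 or back mouse 2, 3 or 4 (adjusted p up to 0.0812).

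By list, 2 of 5 tested dorsal and somite factors (Zic1 and En1) were lower in cheek and none higher, beside 0.853% lower and 0.272% higher among all tested genes. Among 30 tested craniofacial factors, 1 (Otx1) was higher and 1 (Pitx1) lower, with a median log2 difference of 0.12, and among 8 tested T-box and Hand genes 2 (Hand2 and Tbx5) were higher and none lower, with a median of 0.28. None of 13 tested Irx, Meis, Pbx and Emx genes was called. Msx1, a craniofacial homeobox gene, was at 4.60, 3.24, 4.37 and 12.7 FPKM in cheek and 1.19, 2.72, 1.85 and 1.24 in back (limma adjusted p = 0.114). Tbx3 was at 1.98 ± 0.73 and 2.38 ± 0.57 FPKM (limma adjusted p = 0.441).

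Further regulators were called higher in cheek or were read almost only there. Vax2 and Mab21l1 were picked after their values were seen, whereas Nkx2-5 and Foxl2 are genes that the study names for cheek wounds. Vax2, a homeobox factor of the ventral eye, was at 2.18, 3.05, 1.91 and 2.91 FPKM in cheek and 0.62, 0.95, 0.51 and 0.50 in back (1.30 ± 0.21, limma adjusted p = 0.0118). Mab21l1, a gene of eye and craniofacial development, was at 1.25, 0.56, 1.43 and 0.85 and 0.04, 0.31, 0.04 and 0.07 (1.24 ± 0.20, limma adjusted p = 0.0109). Rhox4a, a homeobox gene of the X-linked Rhox cluster, was at 2.12, 1.93, 3.46 and 2.80 FPKM in cheek and was listed at 0 in every back library. It was called, but it passed the filter on low values only through the cheek libraries. Its values are therefore given as a description, without a p-value. Without back mice 1 and 3, Tbx5, Vax2 and Mab21l1 lost their calls (adjusted p = 0.114, 0.164 and 0.164), and without any 1 of the cheek mice Rhox4a did not pass the filter on low values. The Rhox4 genes are near-identical copies, so which of them carried the fragments is uncertain. Nkx2-5, a heart and pharyngeal factor, was at 0.74, 0.78, 0.36 and 0.32 FPKM in cheek and listed at 0 in every back library. Foxl2, a forkhead factor of the eyelid and ovary, was at 0.58, 0.53, 0.26 and 0.52 FPKM in cheek and 0, 0, 0 and 0.03 in back. Both lay under the filter on low values and are given as a description, since 147 genes under that filter had groups that did not overlap.

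**Figure D3:**
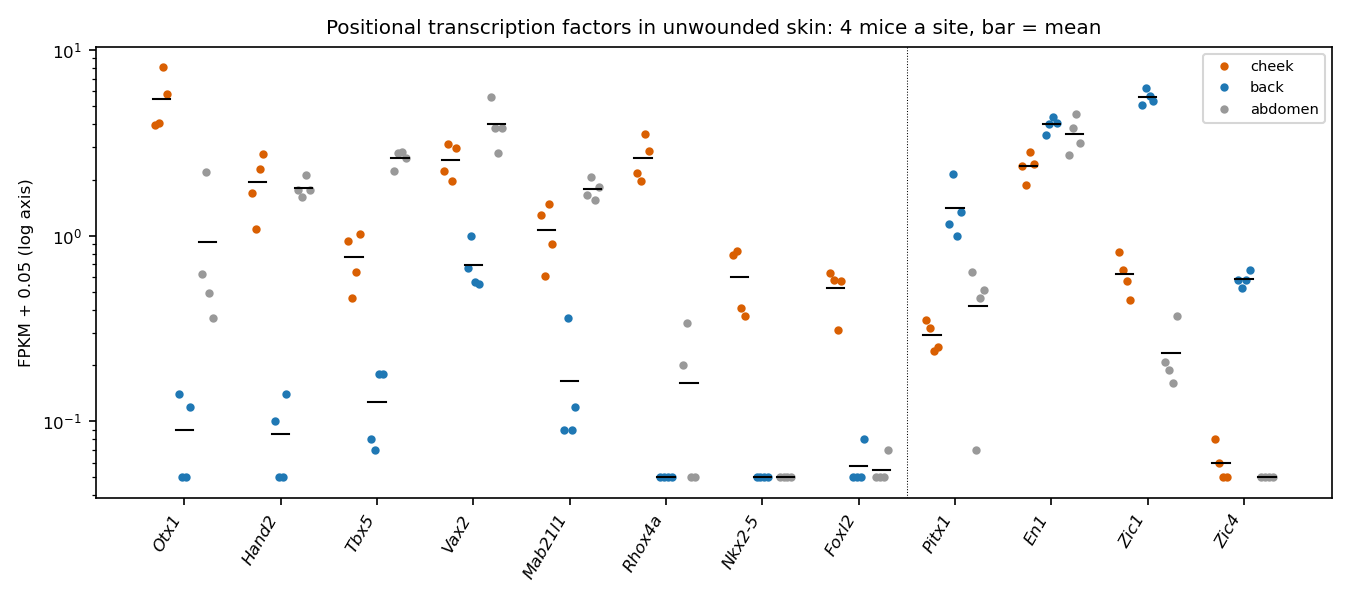
Points are FPKM values of single unwounded libraries (plus 0.05, log axis) for 12 transcription factor genes, with orange for cheek, blue for back and grey for abdomen, and black bars for means of 4 mice. Genes left of the dotted line were higher in cheek than in back (Nkx2-5 and Foxl2 were not in the limma test), and those right of it were lower (Zic4 was not in the limma test). In Zic1 and Zic4 the abdomen lies with or below the cheek, while in Hand2, Tbx5, Vax2 and Mab21l1 it lies with or above the cheek.

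The largest differences between both sites were in the major urinary proteins (Mup), small secreted lipocalins that bind lipid odorants and are best known from male liver and urine. Of 23 Mup genes in the table, 15 were tested and 10 were lower in cheek, none higher, with a median log2 difference of -3.34. Over all tested genes 0.853% were lower. The list was assembled after the values were seen, and all 15 had lower fitted values in cheek. Their genes lie close together on chromosome 4, from 59956804 (Mup4) to 62150841 (Mup21) in GRCm38, and most are near-identical in sequence. The first 100 bases of the coding sequence are shown for 5 called members, from GENCODE vM21 on GRCm38, since these letters bear on how far the members can be told apart. Capitals mark bases that differ from Mup10.
Mup10: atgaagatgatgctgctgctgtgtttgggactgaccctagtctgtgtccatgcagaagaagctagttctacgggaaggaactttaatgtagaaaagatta
Mup9: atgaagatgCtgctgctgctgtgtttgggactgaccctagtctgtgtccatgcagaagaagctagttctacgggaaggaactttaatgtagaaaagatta
Mup2: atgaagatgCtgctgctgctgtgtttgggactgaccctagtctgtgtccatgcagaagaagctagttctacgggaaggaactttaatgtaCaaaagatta
Mup7: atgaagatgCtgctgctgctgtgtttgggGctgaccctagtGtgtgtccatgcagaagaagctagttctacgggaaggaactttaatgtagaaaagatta
Mup1: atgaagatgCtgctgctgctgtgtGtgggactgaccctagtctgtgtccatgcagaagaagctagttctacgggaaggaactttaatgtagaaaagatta
Over the whole coding sequence of 543 bases, Mup9 differed from Mup10 at 2 positions, Mup2 at 4, Mup1 at 5 and Mup7 at 7. The reads were 100 bases long. Of the 100-base windows of Mup10, 97.7% occur letter for letter in another Mup gene, as do 100% of those of Mup9, 97.1% of Mup2, 94.4% of Mup1 and 73.2% of Mup7. How the estimated fragments were divided among these members is therefore uncertain, and their calls are not separate readings. Mup20, known as darcin, a male pheromone, is set apart, since none of its windows occur in another of the 22 Mup genes compared. The called member Gm2083 was not part of that comparison.

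Summed over the 23 genes, Mup transcripts reached 2429 to 6332 FPKM in the back and 61.1 to 304 FPKM in the cheek, so that the groups were well separated. Mup10 made up 65.5% of the back sum. It was listed at 3179, 4488, 1183 and 1354 FPKM in back and at 218, 218, 211 and 39.5 in cheek (log2 difference -4.09 ± 0.64, limma adjusted p = 0.0141), and the cheek library of mouse 4 was the lowest of the 8. Mup2 was at 204, 329, 116 and 166 FPKM in back and 14.3, 14.6, 10.6 and 5.74 in cheek (-4.23 ± 0.37, limma adjusted p = 1.24e-04). Mup20, which shares no window with the other Mup genes compared, was at 5.47, 4.62, 3.57 and 1.74 FPKM in back and 0.07, 0.22, 0.14 and 0.07 in cheek (-2.80 ± 0.26, limma adjusted p = 9.75e-05).

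Mup7 showed the largest fitted difference of all called genes, at 88.6, 341, 50.4 and 27.9 FPKM in back and 0.40, 0.84, 0.87 and 0.61 in cheek (-6.25 ± 0.85, limma adjusted p = 0.00752). Mup9 (-3.82 ± 0.51), Mup1 (-3.34 ± 0.52), Mup13 (-1.58 ± 0.31) and Gm2083, described in the file as a major urinary protein (-5.41 ± 0.80), were called lower as well. Mup15 was listed at 0 in all cheek libraries and at 8.91, 28.0, 4.26 and 6.72 FPKM in back. Gm21320, now named Mup22, was at 43.9, 40.5, 766 and 14.2 FPKM in back and 3.66, 1.53, 1.90 and 0.58 in cheek, with back mouse 3 far above the others. Its call was the least stable (limma adjusted p = 0.0485) and held in 2 of the 12 fits without 1 mouse (those without back mouse 3 or 4), with an adjusted p of up to 0.138 in the others and of 0.0563 on unscaled values. Mup15 lost its call without any 1 of the cheek mice or back mouse 1 (up to 0.0691), Mup13 without cheek mouse 1, 2 or 3 or back mouse 2 or 3 (up to 0.0841) and Mup1 without cheek mouse 4 (0.0507). Without back mice 1 and 3 the calls of Mup1, Mup7, Mup10, Mup13, Mup15 and Gm2083 were lost (adjusted p from 0.0891 to 0.156).

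Genes typical of liver were low at both sites. Of 20, in a list assembled after the values were seen, 15 were under 1 FPKM in all 8 libraries and 5 were tested, of which 1 was called lower in cheek and none higher. The median log2 difference of the 5 was 0.51, and 4 of them had higher fitted values in cheek, none of these called. Alb, serum albumin, was at 1.78, 2.70, 2.50 and 0.90 FPKM in back and 0.33, 0.59, 0.49 and 0.20 in cheek (-1.49 ± 0.29, limma adjusted p = 0.0273), a call that was lost without cheek mouse 1, 3 or 4 or back mouse 1, 2 or 3 (up to 0.0866). Apoa1, Apoa2, Fgb and Ttr, all secreted by liver, were at or under 0.30 FPKM in every library. Without Hp, the highest value of any of the 20 genes was 8.58 FPKM. Hp, haptoglobin, which skin also expresses, was at 219.6 ± 40.3 and 186 ± 54.2 FPKM.

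**Figure D4:**
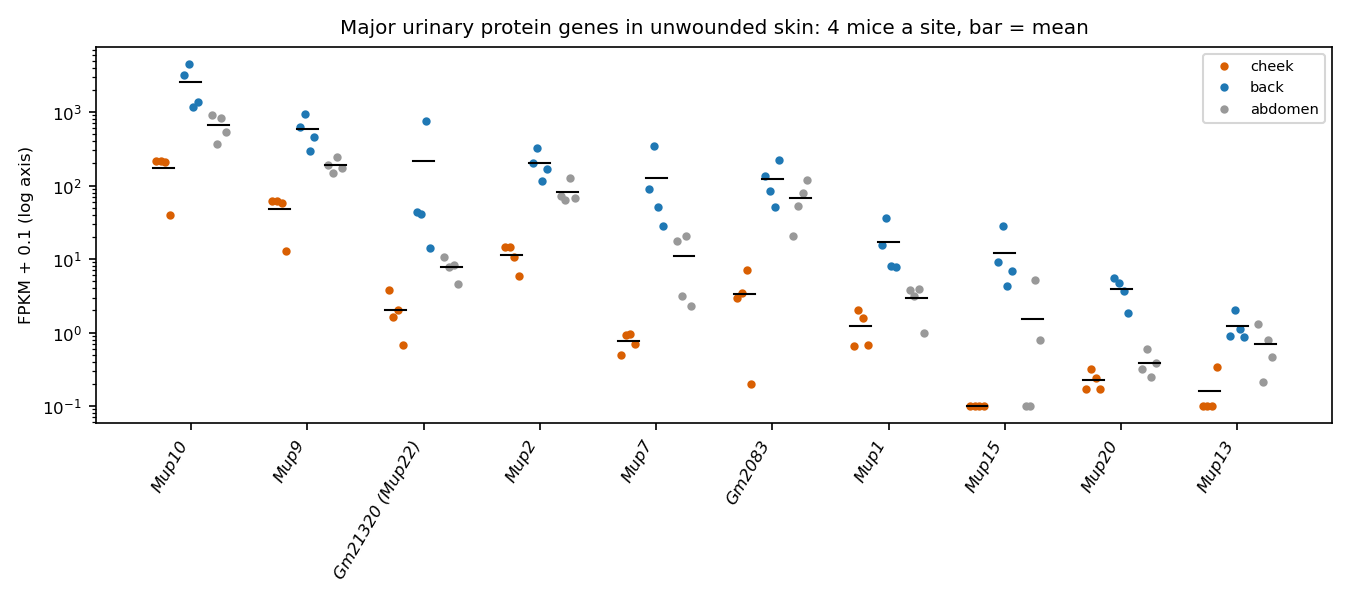
Points are FPKM values of single unwounded libraries (plus 0.1, log axis) for the 10 called major urinary protein genes, with orange for cheek, blue for back and grey for abdomen, and black bars for means of 4 mice. All cheek points lie below all back points of the same gene, and most abdomen points fall between. Points at 0.1 are libraries listed at 0.

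Type I collagen and several genes of collagen processing were lower in cheek. Col1a2 and Col1a1, which encode the chains of type I collagen, had the highest mean FPKM of all called genes. Col1a1 was at 3064, 3691, 3641 and 2452 FPKM in cheek and 4648, 5188, 7074 and 5624 in back, so that the highest cheek library lay below the lowest back library (-0.96 ± 0.19, limma adjusted p = 0.0278). Col1a2 was at 3306, 4292, 3655 and 2564 and 4736, 5587, 7356 and 6771 FPKM (-0.97 ± 0.21, limma adjusted p = 0.0485). Col15a1, a collagen of basement membrane zones, was at 36.5, 47.0, 44.7 and 36.1 and 54.0, 57.9, 63.4 and 57.9 FPKM (-0.65 ± 0.13, limma adjusted p = 0.0384). All 3 calls depended on the scaling: on unscaled FPKM the adjusted p were 0.0523, 0.0768 and 0.0865, and none of the 3 held after quantile normalization. Col1a1 was also lost in 6 of the 12 fits without 1 mouse (those without cheek mouse 1, 3 or 4 or back mouse 2, 3 or 4, adjusted p up to 0.0894), Col1a2 in 9 (up to 0.139) and Col15a1 in 7 (up to 0.112).

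In the list of collagen chains, 3 of 33 tested genes were lower in cheek and none higher, with a median log2 difference of -0.12 (0.01 on unscaled values). The share called lower over all tested genes was 0.853%. Col3a1, the second fibrillar chain of dermis, was at 3375 ± 629 FPKM in cheek and 4610.1 ± 814 in back (limma adjusted p = 0.212). Col22a1, a collagen of tissue junctions that lay under the filter, was at 0.31, 0.17, 0.33 and 0.10 FPKM in cheek and 0.56, 0.55, 0.37 and 0.46 in back.

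Steadier than the collagen calls were those of Cthrc1, Creb3l1 and Prelp. Of these, Cthrc1 and Creb3l1 came from a list assembled after the values were seen. Cthrc1, a secreted collagen triple helix repeat protein, was at 34.6, 29.4, 39.3 and 19.5 FPKM in cheek and 109, 107, 178 and 166 in back (-2.32 ± 0.22, limma adjusted p = 1.24e-04). Creb3l1, a transcription factor that drives secretion of type I collagen, was at 55.1, 46.6, 49.4 and 50.6 and 80.1, 89.7, 88.2 and 82.3 (-0.89 ± 0.10, limma adjusted p = 6.92e-04). Prelp, a small leucine-rich proteoglycan that links basement membrane to connective tissue, was at 68.8, 58.8, 64.4 and 42.1 and 114, 109.5, 96.2 and 96.0 (-0.98 ± 0.14, limma adjusted p = 0.00482). These 3 calls held in each of the 12 fits without 1 mouse, on unscaled values and with the replicate number as a block, and Prelp was lost without back mice 1 and 3 (adjusted p = 0.0823).

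Of 30 tested genes of collagen folding and secretion, a list assembled after the values were seen, 6 were lower in cheek and none higher, with a median log2 difference of -0.31 (-0.17 on unscaled values). Over all tested genes the share called lower was 0.853%. The lower calls of Crtap, P3h4 and Sec31a were lost on unscaled values (adjusted p = 0.0865, 0.0688 and 0.21). Besides Cthrc1 and Creb3l1 the 6 were Crtap (-0.52 ± 0.09) and P3h4 (-0.61 ± 0.11), which belong to collagen-modifying complexes, Sec31a, and Adamts2, the protease that trims the amino end of procollagen. Adamts2 was at 67.6, 70.1, 61.9 and 41.6 FPKM in cheek and 86.5, 97.5, 120.4 and 122 in back (-0.97 ± 0.19, limma adjusted p = 0.0272). Its call was lost after quantile normalization and without cheek mouse 3 or back mouse 2, 3 or 4 (up to 0.0863). Chpf, which lengthens chondroitin chains of proteoglycans, was also lower in cheek, at 20.2 ± 4.71 against 57.0 ± 6.98 FPKM (-1.64 ± 0.17, limma adjusted p = 2.43e-04).

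Other matrix lists gave few calls. Among 31 tested proteases and inhibitors, Mmp23 (-0.89 ± 0.16, limma adjusted p = 0.0233) and Adamts2 were lower, and Adamts20 was higher. Adamts20, a protease that acts in the spread of pigment cells, was at 1.15, 1.07, 0.92 and 1.48 FPKM in cheek and 0.16, 0.11, 0.39 and 0.56 in back (0.99 ± 0.20, limma adjusted p = 0.0322). Mmp23 lost its call without back mouse 2, 3 or 4 (up to 0.0801) and Adamts20 without any 1 of the cheek mice, back mouse 1, 2 or 3 or abdomen mouse 1 (up to 0.0971). Prelp was the only call among 20 tested proteoglycans. None of 22 tested elastic fibre and lysyl oxidase genes (median -0.28) and none of 22 tested matricellular proteins (median -0.06) was called. The matricellular genes still summed to 2721 to 5148 FPKM in cheek and 5601 to 7864 in back, with Sparc as the largest part. Scaled values did not overlap for 1 of them higher in cheek and 6 lower, beside 4.48% and 5.75% of all tested genes. Sparc, a collagen-binding glycoprotein, was at 3686, 4465, 3311 and 2131 FPKM in cheek and 4915, 5113, 7072 and 5798 in back, without overlap, and its limma adjusted p was 0.0656. Loxl1, which crosslinks elastin, gave -0.79 ± 0.18 (limma adjusted p = 0.0608) and Postn, a matricellular protein of dermis, -0.66 ± 0.19 (limma adjusted p = 0.149).

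Markers of fibroblasts and tendon gave 3 calls. Pi16, a marker of adventitial fibroblasts, was at 88.2, 49.7, 50.7 and 28.6 FPKM in cheek and 101, 168, 198 and 187 in back (-1.79 ± 0.35, limma adjusted p = 0.0384, lost in 8 of the 12 fits without 1 mouse, up to 0.112) and was the only call among 22 tested fibroblast genes, whose summed level was 2446 to 4487 FPKM in cheek and 3689 to 4199 FPKM in back. Tnmd, tenomodulin, a marker of tendon, was at 17.2, 32.9, 35.1 and 25.8 FPKM in cheek and 71.7, 58.9, 96.8 and 62.4 in back (-1.53 ± 0.27, limma adjusted p = 0.0185, up to 0.0612 without cheek mouse 4 or back mouse 1 or 3). Mkx, a homeobox factor of tendon, was lower too (-1.02 ± 0.21, limma adjusted p = 0.0436, lost in 10 of the 12 fits, up to 0.11, and at 0.0574 on unscaled values). With Tnmd and Mkx, 2 of 7 tested cartilage, bone and tendon genes were called lower in cheek and none higher, beside 0.853% lower among all tested genes. The median log2 difference of the 7 was 0.07, and 4 of them had higher fitted values in cheek. Scx, the tendon factor scleraxis, was not called, at 5.57 ± 0.64 and 7.63 ± 1.69 FPKM.

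Single enzymes of fatty acid and sphingolipid metabolism were called in both directions. Phyh, Acoxl and Acox3 were picked after their values were seen. Phyh, which starts the breakdown of branched fatty acids in peroxisomes, was at 141, 133, 109.6 and 110.0 FPKM in cheek and 59.2, 67.7, 54.6 and 66.2 in back (0.84 ± 0.12, limma adjusted p = 0.00444). Hacl1, the next enzyme of that pathway, was at 13.2, 19.6, 50.8 and 48.5 FPKM in cheek and 5.85, 5.28, 5.75 and 5.84 in back (2.09 ± 0.41, limma adjusted p = 0.0421). The 4 back libraries were tight, whereas cheek mice 3 and 4 were more than 2-fold above cheek mice 1 and 2. The Hacl1 call was lost after quantile normalization and in 10 of the 12 fits without 1 mouse, those without cheek mouse 1 and abdomen mouse 2 being the exceptions (up to 0.113). Acoxl, an acyl-CoA oxidase-like enzyme, was at 24.1, 24.4, 37.1 and 34.3 and 13.3, 9.29, 11.6 and 8.82 (1.29 ± 0.19, limma adjusted p = 0.00597).

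Acox3, a peroxisomal oxidase of branched acyl-CoA, went the other way, at 19.4, 17.7, 19.5 and 12.6 FPKM in cheek and 27.5, 32.5, 31.1 and 30.3 in back (-0.95 ± 0.14, limma adjusted p = 0.00444). In all, 3 of 21 tested genes of peroxisomal fatty acid oxidation were higher in cheek and 1 was lower, with a median log2 difference of 0.07, in a list assembled after the values were seen. The shares over all tested genes were 0.272% higher and 0.853% lower. Degs2, which makes phytoceramides of the skin barrier, was at 7.14, 7.96, 14.9 and 24.7 FPKM in cheek and 1.5, 0.64, 1.30 and 0.66 in back (2.98 ± 0.42, limma adjusted p = 0.00597, up to 0.0293 without 1 mouse). Sgpp2, a sphingosine phosphate phosphatase, was at 8.12, 9.90, 21.0 and 21.3 and 6.37, 2.96, 3.76 and 3.66 (1.53 ± 0.33, limma adjusted p = 0.0497, lost in 8 of the 12 fits, up to 0.135). In Hacl1, Degs2 and Sgpp2 the 2 highest libraries were cheek mice 3 and 4, which also held the most transcripts of cell division, and mouse 4 those of growing hair.

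Of 5 arylacetamide deacetylase family genes, a group picked after values were seen, 2 were higher in cheek. C130079G13Rik, now named Aadacl2fm1, was at 90.3, 74.5, 118 and 80.1 FPKM in cheek and 17.5, 18.1, 15.9 and 23.4 in back (2.10 ± 0.26, limma adjusted p = 0.00144). Aadacl4 was at 59.2, 60.9, 65.4 and 69.3 and 32.9, 18.2, 25.2 and 23.6 (1.22 ± 0.15, limma adjusted p = 0.00121). For both genes the lowest cheek library was above the highest back library. Aadac (0.40 ± 0.18, limma adjusted p = 0.349), Aadacl2 (-0.09 ± 0.15, limma adjusted p = 0.842) and Aadacl3 (1.18 ± 0.34, limma adjusted p = 0.153) were not called.

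Sebaceous gland genes, 18 tested, gave 1 call in each direction. Scd3, a stearoyl-CoA desaturase of sebocytes, was at 28.9, 60.8, 74.1 and 18.0 FPKM in cheek and 131, 185, 197 and 175 in back (-2.25 ± 0.38, limma adjusted p = 0.0185, up to 0.0685 without cheek mouse 1 or back mouse 2, 3 or 4). Plin5, a lipid droplet protein, was higher (0.94 ± 0.20, limma adjusted p = 0.0458, lost in 11 of the 12 fits, up to 0.127), and the median of the list was 0.22. None of 21 tested adipocyte genes was called (median -0.46, with Adipoq at 118 ± 53.6 and 143 ± 31.2 FPKM). Car3, carbonic anhydrase 3, abundant in fat and muscle, was at 1730.0, 1428, 918 and 859.9 FPKM in cheek and 3211, 3744, 2186 and 3137 in back (-1.49 ± 0.32, limma adjusted p = 0.0462), and Gpx3, a secreted glutathione peroxidase, was lower as well (-0.87 ± 0.18, limma adjusted p = 0.0384). Both calls were lost on unscaled values, after quantile normalization and in 9 of the 12 fits without 1 mouse (up to 0.131 and 0.112).

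Serpins, inhibitors of proteases, gave calls in both directions in the Serpinb6 group and 2 lower calls in the Serpina3 group. Serpinb6d, the largest rise of all, was at 374, 75.0, 99.9 and 39.5 FPKM in cheek and 7.45, 1.58, 7.43 and 4.81 in back (4.19 ± 0.68, limma adjusted p = 0.0185, but 0.0637 without cheek mouse 3). Cheek mouse 1 was the highest. Serpinb6c was also higher in cheek (25.8, 26.1, 32.4 and 28.4 against 14.1, 9.99, 11.1 and 14.97 FPKM, 1.01 ± 0.17, limma adjusted p = 0.0133), while Serpinb6e was lower (0.04, 0.13, 0.12 and 0 against 5.59, 1.2, 3.95 and 6.49 FPKM, -2.97 ± 0.47, limma adjusted p = 0.0126). Serpina3n (-1.02 ± 0.19, limma adjusted p = 0.0229, up to 0.0637 without cheek mouse 3 or back mouse 1, 2 or 3) and Serpina3j (-2.52 ± 0.51, limma adjusted p = 0.0478, lost in 9 of the 12 fits, up to 0.135, and at 0.0573 on unscaled values) were lower. The Serpinb6 and Serpina3 genes are tandem duplicates of similar sequence, so that fragments may be divided among them. In the serpin list, which holds Serpinb6c and Serpina3n, 1 of 28 tested genes was higher and 1 lower, with a median of -0.37, and 22 of the 28 had negative differences.

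Single genes of other functions were among the larger changes. Pcp4l1, a small calmodulin-binding protein, was at 61.2, 52.3, 32.7 and 32.2 FPKM in cheek and 11.1, 10.2, 11.3 and 9.87 in back (1.83 ± 0.21, limma adjusted p = 6.51e-04). Dio2, which activates thyroid hormone, was at 2.10, 3.15, 6.32 and 2.61 and 1.22, 0.49, 0.52 and 0.52 (1.61 ± 0.28, limma adjusted p = 0.0159, up to 0.0577 without back mouse 2 or 3). Tmprss11g, an epithelial serine protease, was at 1.75 ± 0.33 and 0.23 ± 0.072 FPKM (1.56 ± 0.17, limma adjusted p = 3.32e-04). Mettl21e, a muscle methyltransferase, was at 3.17, 4.02, 1.25 and 1.78 and 0.08, 0.02, 0.17 and 0.10 FPKM (2.22 ± 0.34, limma adjusted p = 0.00776).

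In the other direction, Gal, the neuropeptide galanin, was at 0.51, 1.51, 2.29 and 0.99 FPKM in cheek and 6.79, 20.6, 22.2 and 15.6 in back (-3.30 ± 0.45, limma adjusted p = 0.005). C6, a component of the complement attack complex, was at 7.90, 4.90, 3.01 and 2.84 and 16.1, 23.1, 21.4 and 17.9 (-2.19 ± 0.29, limma adjusted p = 0.00278). Both genes, chosen after their values were seen, kept their calls in each of the 12 fits without 1 mouse.

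Skin appendage and epidermal genes gave few calls. None of 9 tested hair shaft and inner root sheath genes was called (limma), and their median log2 difference was 1.41, with cheek mouse 4 far above the other libraries. Krt71, an inner root sheath keratin below the filter, was at 0.31, 0.14, 3.06 and 1651 FPKM in cheek and 0.08, 27.3, 0.11 and 0.03 in back. Lgr5, a receptor of hair follicle stem cells, was at 9.11, 8.71, 11.4 and 14.0 FPKM in cheek and 5.67, 5.24, 5.04 and 5.42 in back (0.79 ± 0.17, limma adjusted p = 0.0462), the only call among 16 tested genes of resting follicles. It held in 2 of the 12 fits without 1 mouse (up to 0.122) and not after quantile normalization. Among 37 tested cornified epidermis genes 1 was lower, Krt10, at 2084, 1806, 2206 and 1652 FPKM in cheek and 4008, 2208, 2935 and 3014 in back (-0.77 ± 0.17, limma adjusted p = 0.0485). That call was lost on unscaled values, after quantile normalization and in 11 of the 12 fits without 1 mouse (up to 0.13). None of 14 tested basal epidermis genes was called, with a median of -0.11. Scaled values of the sites did not overlap for 1 cornified gene higher in cheek and 7 lower. For resting follicle genes these counts were 3 and 1, and for basal genes 0 and 2. The shares over all tested genes were 4.48% higher and 5.75% lower.

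No call was made in the lists of skeletal muscle (34 tested genes), immature muscle (16), blood vessel endothelium (19), lymphatic vessels (6), smooth muscle and pericytes (16), Schwann cells and nerve (17), melanocytes (10), macrophages (17), antigen-presenting cells (14), T and NK cells (16), B and plasma cells (4), neutrophils (8), mast cells (11), salivary and lacrimal glands (10) or red cells (5). Myh4, the fastest myosin heavy chain, was at 682, 971, 461 and 622 FPKM in cheek and 198, 126, 154 and 173 in back, without overlap. Its limma adjusted p was 0.425 with the abdomen libraries in the fit and 0.00903 with the 8 cheek and back libraries only, where it was the 1 call of the skeletal muscle list. In abdomen it ranged from 18.1 to 769 FPKM. Hbb-bs, an adult beta globin, was at 162, 0, 0 and 0 FPKM in cheek and 316, 0.73, 477 and 295 in back, with overlapping groups. Cell division genes, 30 tested, gave no call and a median of 0.41. Mki67, a marker of cycling cells, was at 4.88, 3.98, 11.1 and 17.7 FPKM in cheek and 7.01, 5.44, 5.02 and 3.20 in back (limma adjusted p = 0.618), and Top2a, Ccnb1, Mcm2 and Mybl2 gave limma adjusted p of 0.51, 0.451, 0.548 and 0.687. Among 41 tested xenobiotic enzymes, Cyp1a1 was higher (0.75 ± 0.14, limma adjusted p = 0.0229) and Cyp2f2, Gsta2 and the exporter Abcc3 (-0.70 ± 0.12, limma adjusted p = 0.0173) were lower, with a list median of -0.03. All 3 lower calls were lost on unscaled values (adjusted p = 0.0606, 0.0852 and 0.0517). Without 1 mouse, Cyp1a1 was lost in 4 of the 12 fits (up to 0.0733) and Abcc3 in 3 (up to 0.0577). Immediate early (22 tested), circadian clock (19) and interferon-stimulated genes (26) gave no call, nor did the 1 tested pancreas gene and the 4 Y-linked genes.

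Signalling genes gave 2 calls among 197 tested entries of 6 lists, beside 1.12% called among all tested genes. In the Wnt list, Lgr5 was higher and none of the other 46 tested genes was called. Fstl3, an activin antagonist, was lower in cheek, at 11.2, 11.6, 12.9 and 13.02 FPKM against 17.3, 16.7, 16.3 and 14.4 in back (-0.54 ± 0.10, limma adjusted p = 0.0272), the only call among 38 tested genes of the BMP, TGF-beta and activin families. It was lost on unscaled values (adjusted p = 0.107) and without cheek mouse 1, 2 or 3 or back mouse 1, 2 or 3 (up to 0.0828). No call fell among 21 fibroblast growth factor genes, 56 axon guidance genes, 25 retinoid genes or 10 hedgehog genes. Sfrp4, a Wnt antagonist of dermis, was at 10.5, 7.68, 8.18 and 3.70 FPKM in cheek and 20.3, 31.6, 35.6 and 25.7 in back, without overlap (limma adjusted p = 0.0645). Wnt2 gave -1.27 ± 0.32 (limma adjusted p = 0.0907), Wnt5a 0.76 ± 0.27 (0.24), Gpc3, a glypican, -0.64 ± 0.24 (0.259), Slit2, an axon guidance ligand, -0.06 ± 0.17 (0.912) and Churc1, a zinc finger factor, -0.08 ± 0.19 (0.893).

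The day-3 wounds of the same 8 mice gave a second reading of each gene at both sites, from other tissue of the same animals. Of 14023 genes tested in wounds, 182 (1.3%) were called between cheek and back, 74 higher in cheek (0.528%) and 108 lower (0.77%), and 3292 (23.5%) had an unadjusted p under 0.05. Of the 157 genes called in unwounded skin 151 were tested in wounds. There, 139 had the same sign and 47 were also called, 9 higher and 38 lower, and none was called with the opposite sign. All 17 called Hox genes that were tested in wounds were called lower in cheek wounds as well. The median ratio of the wound to the unwounded log2 difference was 0.63. This ratio covers only genes selected for their unwounded difference, so it does not show that differences shrank with wounding. The share of same-sign genes over all tested genes is not given.

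Hoxa7, Otx1, Zic1 and Mup10 were called in the same direction in wounds. Hoxa7 was at 0.17, 0.45, 0.33 and 0.24 FPKM in cheek wounds and 9.42, 9.53, 8.47 and 9.67 in back wounds (limma adjusted p = 1.81e-06). Otx1 was at 4.74, 4.45, 4.79 and 4.17 and 0.17, 0.10, 0.04 and 0.27 (limma adjusted p = 4.18e-05), Zic1 at 0.62, 0.36, 0.12 and 0.39 and 2.67, 4.34, 2.00 and 2.61 (limma adjusted p = 5.63e-04), and Mup10 at 153, 76.3, 126 and 38.8 and 675, 1182, 301 and 679 (limma adjusted p = 0.0123). Hacl1, whose unwounded call was unsteady, was at 16.6, 27.2, 27.9 and 27.1 FPKM in cheek wounds and 4.32, 4.84, 3.39 and 4.61 in back wounds, a log2 difference of 2.28 (limma adjusted p = 1.05e-04). Col1a1 was not called in wounds, at 2052, 1286, 1417 and 2618 and 2497, 2268, 3048 and 3476 FPKM (limma adjusted p = 0.101).

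For 4 of 14423 genes (0.0277%) the difference between the sites changed with wounding (limma interaction with mouse terms, adjusted p = 0.0108 for each). The difference moved upward in 2 of them (0.0139%) and downward in 2 (0.0139%), and 1008 genes (6.99%) had an unadjusted p under 0.05. Degs2, which was higher in unwounded cheek, stood at 29.9, 31.9, 34.8 and 38.0 FPKM in cheek wounds and at 32.2, 42.3, 31.6 and 37.0 in back wounds, where the groups overlapped. Hand2, at 1.03 to 2.69 FPKM in unwounded cheek, was at 0.13, 0.10, 0.05 and 0.60 in cheek wounds and 0.08, 0, 0.03 and 0.03 in back wounds. For Hoxa10 the back fell from 3.10 to 6.75 FPKM in unwounded skin to 0.69 to 2.13 FPKM in wounds, while cheek wounds were listed at 0. Gm21320 was at 7.83, 12.8, 177 and 5.09 FPKM in back wounds and 3.43, 3.07, 2.68 and 1.07 in cheek wounds. The count of such genes was 0 without cheek mouse 3 or 4 or back mouse 2 or 3, 1 or 2 without back mouse 1 or cheek mouse 1, and 8 and 10 without cheek mouse 2 and abdomen mouse 1.

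**Figure D5:**
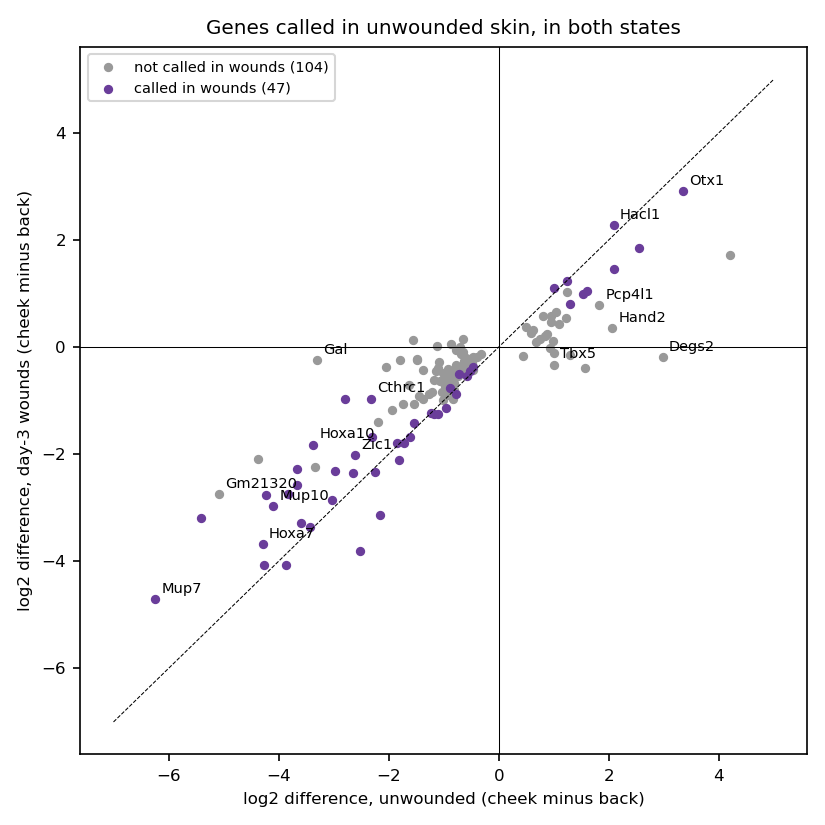
Each point is 1 of the 151 genes called in unwounded skin and tested in wounds, with the log2 difference of cheek minus back in unwounded skin on the horizontal axis and in day-3 wounds on the vertical axis. Purple points are the 47 genes also called in wounds, and the dashed line marks equal differences. Most points lie in the lower left and upper right quadrants, and Degs2, Hand2, Tbx5 and Gal lie near 0 in wounds.

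Unwounded abdomen, in 4 further mice, placed the called genes differently. On the log2 scale the abdominal mean was nearer that of back than that of cheek for all 18 called Hox genes. For the 101 other genes lower in cheek it was nearer back for 51 and nearer cheek for 50, and for the 38 genes higher in cheek it was nearer cheek for 24 and nearer back for 14. These are descriptions, since abdomen entered the fit with both sites. Hoxb8 lay between, at 1.73, 1.18, 1.55 and 1.19 FPKM in abdomen. Zic1 was at 0.16, 0.14, 0.11 and 0.32 FPKM in abdomen and Zic4 was listed at 0, both as low as or lower than cheek. Otx1 was at 0.57, 2.16, 0.44 and 0.31 FPKM in abdomen, Hand2 at 1.71, 1.56, 2.07 and 1.72 and Tbx5 at 2.18, 2.75, 2.77 and 2.58, so that Hand2 was alike in cheek and abdomen and Tbx5 was highest in abdomen. Cthrc1 was at 25.6, 23.0, 24.6 and 25.4 FPKM in abdomen, near the cheek values. Pcp4l1 was at 13.8, 11.2, 16.0 and 11.8, near the back values, and Mup10 at 910.3, 367, 823 and 538, between both.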

How the data were processed

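RNA from unwounded skin and day-3 wounds of 12 CD1 mice was sequenced as paired 100-base reads, and the authors deposited 1 table of FPKM values per gene and library. Per the study's methods, filtered reads were aligned to mouse build mm10 with HISAT2, and expression was then computed with RSEM 1.2.12 from Bowtie2 2.2.5 alignments. Whether strand was used is not given in the sources used here. A second deposited file holds log2 fold changes and adjusted p-values of the authors' own comparisons (DESeq2) and was not used. FPKM values give no read counts, so the depth of each library is unknown and no counting intervals are given.

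Values were divided by a median-of-ratios size factor per library, and log2(FPKM + 0.5) was fitted with limma 3.58.1 (R 4.3.3, statmod 1.5.0) with trend and robust estimation over the 12 unwounded libraries, after a filter of at least 0.5 FPKM in 4 libraries. Scaling was applied because the study scaled its counts. Tests were two-sided, with Benjamini-Hochberg adjustment over all tested genes and a threshold of 0.05. Wounds were fitted alone, and the change of the difference with wounding over 24 libraries with mouse terms. Genes below the filter were not tested. The fit was tested on simulated data for the cheek and back comparison: of 200 genes changed by 1 on the log2 scale, among 13956, 156 (78%) were called, with 10 unchanged genes. The simulated errors were independent normal draws, with the same spread at each site and no library that stood apart. The share of 78% therefore does not give the sensitivity in the real data.

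Alternatives were unscaled and quantile-normalized values, other pseudocounts and filters, no trend, 8 or 24 libraries, the replicate number as a block, each mouse left out, and, added after seeing the data, both back libraries with insulin transcripts left out. Mice of different sites share only a replicate number.

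The genes and lists were chosen with earlier results of these data known. Named were the 12 largest rises and 12 largest falls among called genes that did not overlap and reached 1 FPKM at the higher site, every called gene of the positional, matrix and signalling lists, the genes the study names for an RNA measurement, the 6 called genes with the highest mean, and the called gene of smallest p in each other list. Genes named outside this rule were chosen after their values were seen. Some genes are not reported here. Coordinates are from RefSeq on GRCm38.p6, and coding sequences from GENCODE vM21. Nothing says more than that libraries came from separate mice, and p-values measure the spread between these mice.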

Additional observations from a re-analysis of the deposited data

Results flagged for a closer look

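In 14 of 150 groups of 4 libraries, the gap between the highest or lowest library and its nearest neighbour took up more of the group's range than Dixon's 95% critical value allows. Chance alone gives about 1 in 20 groups where values are normally distributed and groups are independent. The groups here share libraries, and their FPKM values were not tested for normality, so that rate may not hold for them. In 5 of the 14 the other 3 libraries were at 0, which fixes the ratio at 1, so that 9 of 145 groups remain without such groups. For Hacl1 in back the ratio was 0.831, with mouse 2 at 5.28 FPKM and the others at 5.75 to 5.85. For Dio2 in back the ratio was 0.946, with mouse 1 at 1.22 FPKM and the others at 0.49 to 0.52. For Mup10 in cheek the ratio was 0.981, with mouse 4 at 39.5 FPKM and the others at 211 to 218. For Mup9 in cheek the ratio was 0.947, with mouse 4 at 12.7 FPKM and the others at 57.0 to 61.9. For Hoxa10 in cheek the ratio was 1, with mouse 3 at 0.03 FPKM and the others at 0. For Hoxb4 in back the ratio was 0.918, with mouse 3 at 1.93 FPKM and the others at 2.79 to 2.88. For Hoxb6 in cheek the ratio was 1, with mouse 4 at 0.09 FPKM and the others at 0. For Hoxb9 in cheek the ratio was 1, with mouse 4 at 0.04 FPKM and the others at 0. For Hoxc9 in cheek the ratio was 1, with mouse 4 at 0.11 FPKM and the others at 0. For Mmp23 in back the ratio was 0.865, with mouse 1 at 30.9 FPKM and the others at 40.4 to 42.1. For Foxl2 in cheek the ratio was 0.837, with mouse 3 at 0.26 FPKM and the others at 0.52 to 0.58. For Foxl2 in back the ratio was 1, with mouse 4 at 0.03 FPKM and the others at 0. For Hoxd3 in back the ratio was 0.869, with mouse 2 at 0.94 FPKM and the others at 0.49 to 0.54. For hair shaft and inner root sheath genes in cheek the ratio was 0.885, with mouse 4 at 9078 FPKM and the others at 13.8 to 64.8.

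The difference between cheek and back changed with wounding in 4 genes by limma's interaction test (adjusted p = 0.0108 each). For Degs2 the cheek minus back log2 difference was lower in wounds than in unwounded skin, with a change of -3.17. For Gm21320 the cheek minus back log2 difference was higher in wounds than in unwounded skin, with a change of 2.35. For Hand2 the cheek minus back log2 difference was lower in wounds than in unwounded skin, with a change of -1.71. For Hoxa10 the cheek minus back log2 difference was higher in wounds than in unwounded skin, with a change of 1.57.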

How the results depend on the processing

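No named called gene reversed. Genes that were not called reversed as follows: Slit2 (-0.06 as reported) was at 0.059 on unscaled values and 0.042 without back mice 1 and 3, and ranged from -0.22 to 0.034 with 1 mouse left out, being above 0 without back mouse 3 or 4. Churc1 was at 0.067 on unscaled values. Mybl2 ranged from -0.034, without cheek mouse 4, to 0.61. The number of called genes (157, 38 higher and 119 lower in cheek) was 392 with all 24 libraries in 1 fit (129 and 263), 80 with the replicate number as a block (15 and 65) and 44 without back mice 1 and 3 (10 and 34). On unscaled values 78 were higher and 69 lower. It was 123 to 158 in the other settings. With 1 mouse left out it ranged from 75 to 150, with 17 to 43 higher and 57 to 107 lower. The fewest calls came without cheek mouse 3, back mouse 3 and back mouse 2, with 75, 76 and 81 genes. The number of called genes also called with the same sign in wounds (47) ranged from 31 to 55, and the number whose difference changed with wounding (4) from 0 to 10. The causes were not tested.

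The replicate number did not pair the mice: deviations of same-numbered libraries correlated at -0.12 to 0.08, and those of other numbers at -0.24 to 0.23. With that block, 22 of the named genes lost their call. Among the named genes, 10 lost it on unscaled values, 10 after quantile normalization, 10 with 8 libraries only and 30 without back mice 1 and 3. Depth is unknown from FPKM values, so the precision of low values could not be given, and a gene listed at 0 is not shown to be absent.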
